A study of Mus musculus with 23 samples.

Results

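The mRNAs of 10 genes of the p53 pathway and of the BCL2 family were followed from the fully grown mouse oocyte to the 2-cell embryo. They were Trp53, Mdm2, Cdkn1a, Ccng1, Zmat3, Pmaip1, Bbc3, Bax, Mcl1 and Bcl2l10, taken by symbol, and all 10 were found among the 56196 genes of each count table. The study compared samples labelled Eif4enif1+/- (het) with samples labelled WT. Eif4enif1 encodes 4E-T, a partner of the cap-binding protein eIF4E found in cytoplasmic mRNA granules. Oocytes at the germinal vesicle (GV) stage gave a translatome, the ribosome-bound mRNA, and a transcriptome, the total mRNA, from the same specimen. There were 2 het and 2 WT libraries of the translatome and 2 het and 2 WT libraries of the transcriptome. Embryo RNA-seq had 5 groups of 3 libraries. These were het embryos labelled as arrested at 1 cell after 24 h of culture, het 2-cell and WT 2-cell embryos after 24 h of culture, and het 1-cell and WT 1-cell embryos with no treatment. The labels give no allele structure, strain, animal age or number of cells per library, and do not say whether an embryo's genotype is its own or its mother's.

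The transcription factor p53, encoded by Trp53, is held low in most cells by MDM2, a ubiquitin ligase that marks it for degradation. When p53 is stabilised, for example after DNA damage, it raises transcription of its target genes, among them Mdm2 itself, the cell cycle inhibitor Cdkn1a, and the genes Ccng1, Zmat3, Pmaip1, Bbc3 and Bax. Much of this control acts on the protein and leaves the Trp53 mRNA unchanged. PMAIP1 (NOXA) and BBC3 (PUMA) are small proteins that block the survival members of the BCL2 family, such as MCL1, while BAX opens the outer mitochondrial membrane. Bcl2l10 is a BCL2-family gene whose mRNA is abundant in mammalian oocytes. The mouse embryo inherits its first mRNAs from the oocyte, degrades most of them and starts its own main wave of transcription at the 2-cell stage.

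Sequences before the transcription starts are shown because several of these genes are p53 targets and because the Cdkn1a, Ccng1 and Mdm2 mRNAs were called different between WT 2-cell and WT 1-cell embryos, the first 2 higher and Mdm2 lower. RefSeq windows on GRCm38.p6, each of 250 bases before and 50 bases after an annotated start, were used for 7 of the 10 genes in 10 windows. Pmaip1 was left out of the search by rule, and no window was found for Zmat3 or Bcl2l10. Each window was searched on both strands for the p53 half-site and for 2 adjacent half-sites with at most 1 mismatch. A half-site was present in 5 of the 10 windows, against 8.36% of all 32851 windows. A full site of 2 adjacent half-sites was present in 2 of the 10 windows, against 0.0883% of all windows, and those 2 were the upstream Cdkn1a window and the Ccng1 window. Stretches of 40 bases around the match follow, 5′ to 3′ on the gene's strand, with the coordinates of the whole window and with the full site in capitals for Cdkn1a and Ccng1 and the half-site in capitals for the others.
Cdkn1a (chr17:29090729-29091028, plus strand): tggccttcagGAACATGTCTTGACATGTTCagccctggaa
Ccng1 (chr11:40755237-40755536, minus strand): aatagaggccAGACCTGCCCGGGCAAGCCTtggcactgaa
Mdm2 (chr10:117710709-117711008, minus strand): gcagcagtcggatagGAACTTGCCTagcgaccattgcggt
Trp53 (chr11:69580109-69580408, plus strand): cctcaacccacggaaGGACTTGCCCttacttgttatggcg
Bax (chr7:45466849-45467148, minus strand): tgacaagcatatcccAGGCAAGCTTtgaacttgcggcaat
In Cdkn1a the full site ran over bases -51 to -32, and in Ccng1 over bases -195 to -176, where base -1 is the last before the annotated start. The second Cdkn1a window, the Mcl1 window and the 3 Bbc3 windows held neither motif. A match describes the letters of a window and is not a binding measurement. Several of these genes were chosen as p53 targets, and some have more than 1 window. The comparison with all windows is therefore a description and not a test.

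Library totals were 3.62 to 50.5 M counts in oocytes and 5.6 to 40.4 M counts in embryos. The smallest, at 3.62 M, was het transcriptome library 1. Het transcriptome library 2 had 19.8 M counts, and the WT transcriptome libraries had 44.3 and 45 M. Het 1-cell libraries 1 and 3 stood apart from the rest of their stage. Their 100 most abundant genes held 6.34% and 5.53% of the counts, against 32.1% to 38% in the other 4 1-cell libraries, and 12 oocyte marker mRNAs summed to 1650 and 1330 counts per M counts (CPM), against 8500 in het 1-cell library 2 and 7790 to 9190 in WT 1-cell libraries. Results that rest on them are therefore given with and without them. The 3 arrested libraries differed most among themselves, with correlations of log levels across genes of 0.634 to 0.76, against 0.839 to 0.889 in het 2-cell and 0.922 to 0.927 in WT 2-cell libraries. The targeted mRNA, Eif4enif1, averaged less in het than in WT libraries throughout. It fell by 1.24 (SE 0.26) on the log2 scale in the GV translatome and by 1.26 (SE 0.26) in the GV transcriptome, with adjusted p = 0.0224 and 0.0283 in edgeR's quasi-likelihood test, while the differences of -1.19 (SE 0.41) at 1 cell and -0.6 (SE 0.44) at 2 cells were not called (adjusted p = 1 for both). Arrested libraries had 108, 29.5 and 58.6 CPM of it. Levels below are TMM-scaled CPM, which are shares of a library, so that fewer molecules of one mRNA and more of the others cannot be told apart. In bulk libraries of this kind, fewer cells and less RNA per cell also cannot be told apart. Adjusted p-values are Benjamini-Hochberg values over all genes tested, a gene is called when its adjusted p is under 0.05, and n is 3 libraries for each embryo group and 2 for each oocyte group.

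Among the 10 mRNAs, Cdkn1a, Ccng1, Pmaip1 and Mcl1 were higher in WT 2-cell than in WT 1-cell embryos, and Mdm2 and Bcl2l10 were lower. That is 6 of 10 called, 4 up and 2 down, where 42.5% of all 23656 genes were called, 27.3% up and 15.1% down, and the share of members called is not far from the background of this transition. Arrested embryos had higher Cdkn1a, Ccng1, Pmaip1 and Mcl1 than WT 1-cell embryos, 4 of 10 called up and none down, where 16.2% of all genes were called, 12.1% up and 4.16% down. Against the 2-cell groups, of the same culture time, they differed by call in Bcl2l10 alone, which was higher. It was the 1 member called of 10 against het 2-cell embryos, where 5.08% of all genes were called, 2.09% up and 2.99% down, and against WT 2-cell embryos, where 14% were called, 7.14% up and 6.85% down. Het and WT embryos of the same stage differed in no member by edgeR's test, with 0% of genes called at 1 cell and 0.00423% at 2 cells. The median fitted log2 change of the members was 2.29 for WT 2-cell against WT 1-cell embryos, where that of all genes was 0.61. It was 3.16 for arrested against WT 1-cell embryos, where that of all genes was 0.43. With members absent from one group set at their bound, these 2 member medians were 2.29 and 2.49, and no bound was set for all genes. For arrested embryos the member median was 0.04 against het 2-cell and -0.37 against WT 2-cell embryos, where those of all genes were -0.07 and -0.02. Comparisons of arrested embryos share the same 3 arrested libraries, and the first 2 comparisons share the WT 1-cell libraries.

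**Figure D1:**
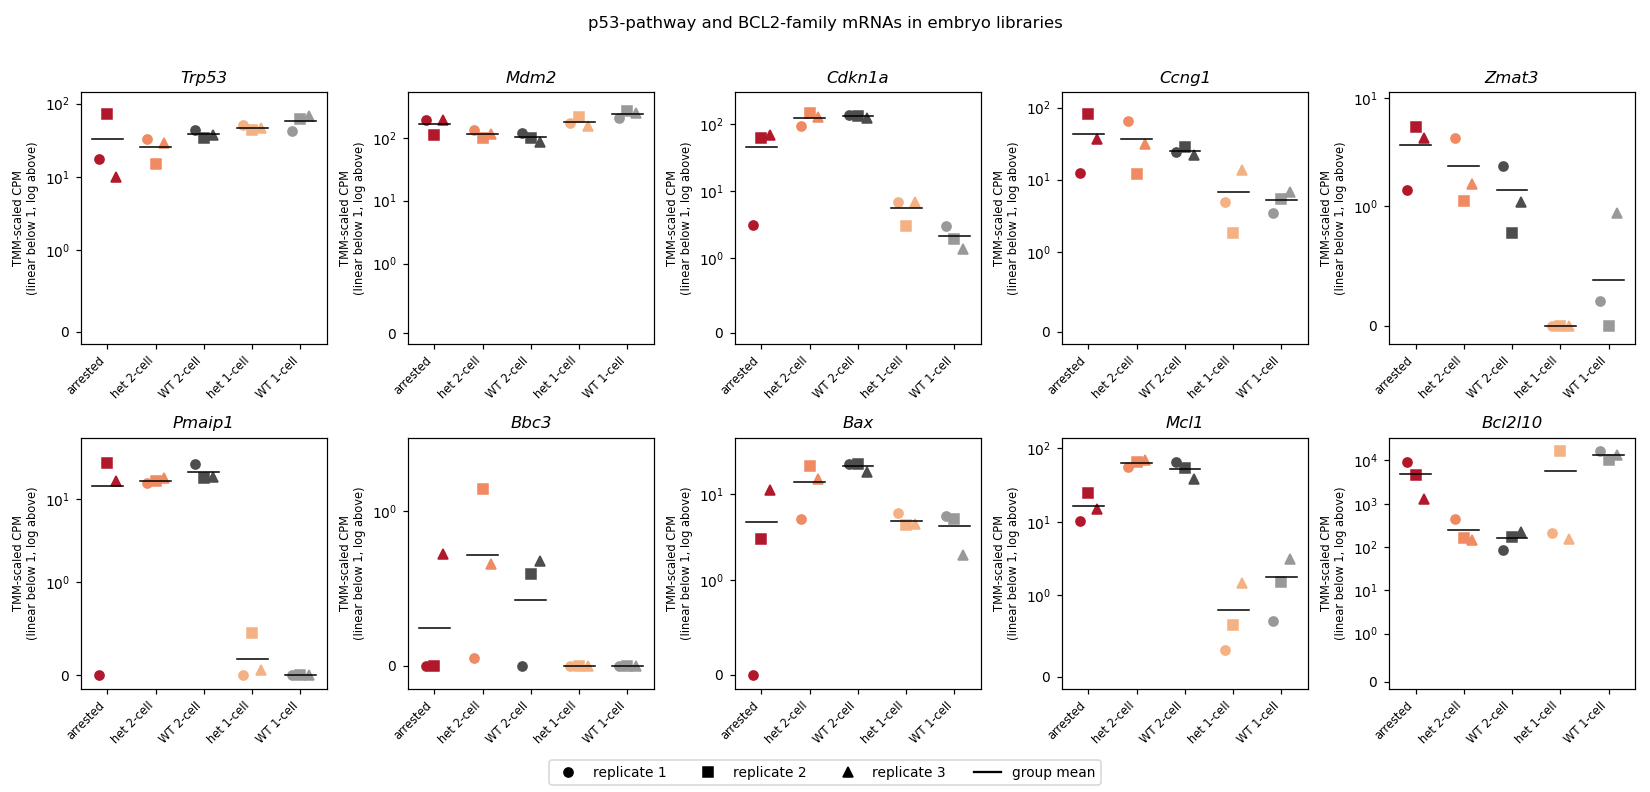
Level of each of the 10 mRNAs in the 15 embryo libraries, as TMM-scaled CPM on an axis that is linear below 1 and logarithmic above. Each point is a library, its shape gives the replicate number, and the line is the group mean. Cdkn1a, Pmaip1 and Mcl1 are high in both 2-cell groups and low in both 1-cell groups, Bcl2l10 shows the opposite order except in het 1-cell libraries 1 and 3, and the arrested libraries scatter, with Pmaip1 of library 2 (26.8 CPM) above every 2-cell library and Cdkn1a of library 1 (3.17 CPM) inside the 1-cell range.

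Trp53 itself (mm10 chromosome 11, 69580359 to 69591873, plus strand) had 17.5, 71 and 9.83 CPM in arrested libraries. Its levels were 32.9, 14.8 and 28.6 CPM in het 2-cell and 43, 33.9 and 37.4 CPM in WT 2-cell libraries. At 1 cell they were 50.6, 43.8 and 46.3 CPM in het embryos, and 42.8, 61.5 and 68.4 CPM in WT embryos. With no scaling factor the 1-cell means were 83.9 CPM in het and 49.1 CPM in WT embryos, against scaled means of 46.9 CPM in het and 57.6 CPM in WT, so the order of the genotypes at this stage turned with the scaling. Arrested library 2 was the highest of the 15 embryo libraries and arrested library 3 the lowest, so the arrested group spanned all others. No comparison called Trp53, with log2 differences of -0.81 (SE 0.62, adjusted p = 0.389) for arrested against WT 1-cell embryos and -0.59 (SE 0.62, adjusted p = 0.448) for WT 2-cell against WT 1-cell embryos. Without arrested library 2, Trp53 was called lower in arrested embryos, by edgeR's adjusted p, against WT 1-cell (-2.08, 0.0228), het 1-cell (-1.78, 0.0223) and WT 2-cell embryos (-1.48, 0.0439). The processed pseudogene Trp53-ps holds 3.64% of the 50-base words of Trp53 and had at most 2.91 CPM in any embryo library, so its share in the Trp53 counts is small.

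Mdm2 (chromosome 10, 117688875 to 117710758, minus strand), the ligase that limits p53, was the second most abundant of the 10 mRNAs per kb of exon at the 1-cell stage. It had 195, 109 and 194 CPM in arrested libraries. It had 135, 97.6 and 117 CPM in het 2-cell and 120, 98.9 and 86.8 CPM in WT 2-cell libraries. It had 173, 214 and 156 CPM in het 1-cell and 204, 265 and 245 CPM in WT 1-cell libraries. Here too the order of the 1-cell genotypes turned with no scaling factor, at means of 303 CPM in het and 202 CPM in WT embryos. All 3 WT 2-cell libraries lay below all 3 WT 1-cell libraries, and Mdm2 fell by 1.22 (SE 0.35, adjusted p = 0.0146) on the log2 scale by edgeR's test. That call was lost without WT 1-cell library 2 (adjusted p = 0.0551), WT 2-cell library 2 (0.0514) or WT 2-cell library 3 (0.0583). Arrested libraries 1 and 3 stayed near the 1-cell range and library 2 lay in the 2-cell range. The arrested group as a whole was called different from none of the others (-0.52, SE 0.35, adjusted p = 0.317 against WT 1-cell, and 0.71, SE 0.35, adjusted p = 0.18 against WT 2-cell embryos).

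Cdkn1a (chromosome 17, 29090976 to 29100727, plus strand) encodes p21, which inhibits cyclin-dependent kinases. It had 3.17, 62.6 and 69.5 CPM in arrested libraries. It had 94, 148 and 126 CPM in het 2-cell and 136, 134 and 123 CPM in WT 2-cell libraries. It had 6.9, 3.05 and 6.92 CPM in het 1-cell and 3.05, 1.95 and 1.36 CPM in WT 1-cell libraries. Arrested libraries 2 and 3 thus stood well above every 1-cell library and below every 2-cell library, while arrested library 1 was at the 1-cell level. Cdkn1a rose by 5.95 (SE 0.91, adjusted p = 0.000593) in WT 2-cell over WT 1-cell embryos and by 4.41 (SE 0.84, adjusted p = 0.00635) in arrested over WT 1-cell embryos, both on the log2 scale by edgeR's test. Both calls held when any 1 library was left out. All 3 arrested libraries were below all 2-cell libraries, but the differences of -1.44 (SE 0.74, adjusted p = 0.248) against het 2-cell and -1.54 (SE 0.74, adjusted p = 0.173) against WT 2-cell embryos were not called. Of its exon bases, 7.68% overlap the gene AC167363.2 on the other strand, whose reads cannot be separated without strand information.

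Ccng1 (chromosome 11, 40748552 to 40755311, minus strand) encodes cyclin G1, a p53 target that acts on MDM2 through a phosphatase. Levels were 12.4, 81.1 and 37.1 CPM in arrested, 65.5, 11.9 and 31.5 CPM in het 2-cell and 24, 28.8 and 21.7 CPM in WT 2-cell libraries. At 1 cell they were 4.82, 1.8 and 13.5 CPM in het embryos, and 3.46, 5.32 and 6.8 CPM in WT embryos. The arrested and het 2-cell groups overlapped and both spread widely, whereas the WT groups were tight and apart. Ccng1 rose by 2.25 (SE 0.71, adjusted p = 0.023) in WT 2-cell over WT 1-cell embryos and by 3.07 (SE 0.73, adjusted p = 0.0155) in arrested over WT 1-cell embryos by edgeR's test. Neither call is robust to single libraries. The first was lost without WT 1-cell library 1 (adjusted p = 0.0803), WT 1-cell library 2 (0.0667) or WT 2-cell library 2 (0.0589), and the second without WT 1-cell library 1 (0.0634), 2 (0.0643) or 3 (0.0514).

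Zmat3 (chromosome 3, 32334792 to 32366014, minus strand), a p53 target for an RNA-binding zinc-finger protein, was scarce in every library. It had 1.4, 5.44 and 4.26 CPM in arrested, 4.33, 1.11 and 1.62 CPM in het 2-cell and 2.35, 0.777 and 1.09 CPM in WT 2-cell libraries. WT 1-cell libraries had 0.203, 0 and 0.942 CPM, and no read fell on it in the 3 het 1-cell libraries, where a floor of 3 counts stands for 0.249, 0.27 and 0.178 CPM. Arrested libraries all lay above the WT 1-cell libraries, but the log2 difference of 3.24 (SE 1.33, adjusted p = 0.107) was not called by edgeR. DESeq2 called it (3.31, adjusted p = 0.0115).

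Pmaip1, the gene of the BH3-only protein NOXA, was nearly absent at 1 cell. It had 0, 26.8 and 16.4 CPM in arrested libraries. It had 15.2, 16.4 and 17.5 CPM in het 2-cell and 26.3, 17.5 and 18 CPM in WT 2-cell libraries. No read fell on it in the 3 WT 1-cell libraries, and het 1-cell libraries had 0, 0.449 and 0.0592 CPM. Arrested libraries 2 and 3 were therefore inside or next to the 2-cell range and library 1 was without a read, where 3 counts stand for 0.28 CPM. Against a floor of 3 counts over the WT 1-cell group, Pmaip1 was at least 339-fold higher in WT 2-cell embryos (adjusted p = 0.0022 by edgeR) and at least 276-fold higher in arrested embryos (adjusted p = 0.00907). Both calls held when any 1 library was left out. Against the 2-cell groups the arrested group gave log2 differences of -0.18 (SE 1.17, adjusted p = 0.953, het) and -0.52 (SE 1.17, adjusted p = 0.804, WT). With a standard error of over 1 log2 unit, these values do not show the groups to be alike.

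Bbc3 (chromosome 7, 16308393 to 16318205, plus strand), the gene of the BH3-only protein PUMA, stayed close to the detection limit. It had 0, 0 and 0.723 CPM in arrested, 0.0509, 1.43 and 0.658 CPM in het 2-cell and 0, 0.594 and 0.677 CPM in WT 2-cell libraries. None of the 6 1-cell libraries had a read of it. Its 41 reads in the WT 2-cell group made it at least 7.14-fold higher than in the WT 1-cell group, which was not called (adjusted p = 0.0933 by edgeR). So of the BH3-only pair, NOXA mRNA was at 15.2 to 26.3 CPM in the 2-cell libraries and PUMA mRNA at 0 to 1.43 CPM.

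Bax (chromosome 7, 45461697 to 45466898, minus strand), the effector of the mitochondrial pore, had 0, 2.99 and 11.2 CPM in arrested libraries. It had 5.19, 21.3 and 15 CPM in het 2-cell and 22.7, 22.8 and 18.4 CPM in WT 2-cell libraries. It had 5.99, 4.31 and 4.44 CPM in het 1-cell and 5.63, 5.19 and 1.94 CPM in WT 1-cell libraries. All WT 2-cell libraries were above all 1-cell libraries and above all arrested libraries, without a call by edgeR in either case. The log2 difference was 2.32 (SE 1.14, adjusted p = 0.115) for WT 2-cell against WT 1-cell embryos and -2.16 (SE 1.14, adjusted p = 0.208) for arrested against WT 2-cell embryos. DESeq2 called the first at adjusted p = 0.0489. Of the exon bases of Bax, 12.2% overlap the gene Gm45808 on the same strand, so its counts are uncertain to that extent.

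Mcl1 (chromosome 3, 95658788 to 95663176, plus strand) encodes a short-lived survival protein that NOXA binds. It had 10.3, 25 and 14.7 CPM in arrested libraries. It had 55.1, 65.9 and 70.1 CPM in het 2-cell and 64.3, 54.3 and 37.8 CPM in WT 2-cell libraries. It had 0.333, 0.629 and 1.48 CPM in het 1-cell and 0.678, 1.49 and 3.09 CPM in WT 1-cell libraries. The 3 levels were separate without overlap, with the arrested libraries above every 1-cell and below every 2-cell library, library 1 included. Mcl1 rose by 4.88 (SE 0.62, adjusted p = 0.000316) in WT 2-cell over WT 1-cell embryos and by 3.24 (SE 0.58, adjusted p = 0.0044) in arrested over WT 1-cell embryos by edgeR's test, and both calls held when any 1 library was left out. The deficit against 2-cell embryos lay at the threshold. It was -1.93 (SE 0.54, adjusted p = 0.0567) against het 2-cell and -1.64 (SE 0.54, adjusted p = 0.0572) against WT 2-cell embryos. It was called with RLE scaling (adjusted p = 0.0461 and 0.045), with DESeq2 (0.00269 and 0.00757), without arrested library 2 (0.0247 and 0.0251) and, against het 2-cell embryos, with all 15 embryo libraries in the fit (0.0496).

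Bcl2l10 (chromosome 9, 75347758 to 75351632, plus strand), the oocyte member of the BCL2 family, moved the other way and over the widest range. It had 8973, 4627 and 1285 CPM in arrested libraries. It had 444, 160 and 143 CPM in het 2-cell and 87.3, 170 and 221 CPM in WT 2-cell libraries. WT 1-cell libraries had 16910, 10020 and 13100 CPM. The arrested libraries lay between WT 1-cell and 2-cell libraries without overlap on either side. Bcl2l10 fell by 6.39 (SE 0.81, adjusted p = 0.000315) in WT 2-cell against WT 1-cell embryos by edgeR's test, a call that held when any 1 library was left out. In arrested embryos it was higher by 4.32 (SE 0.73, adjusted p = 0.022) than in het 2-cell and by 4.96 (SE 0.76, adjusted p = 0.0119) than in WT 2-cell embryos. These calls were lost without het 2-cell library 2 (adjusted p = 0.102) or 3 (0.107) for the first, and without WT 2-cell library 1 (0.0621) or 2 (0.0558) for the second, although the log2 difference stayed between 3.57 and 5.03 and between 4.21 and 5.41. Leaving out each of those libraries also lowered the count over all genes, to 0 against het 2-cell and to 1 against WT 2-cell embryos. With all 15 embryo libraries in the fit, the first had adjusted p = 0.0745. Against WT 1-cell embryos the arrested group was lower by 1.43 on the log2 scale (-1.43, SE 0.65, adjusted p = 0.142), which was called without arrested library 1 (-2.17, adjusted p = 0.0272).

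**Figure D2:**
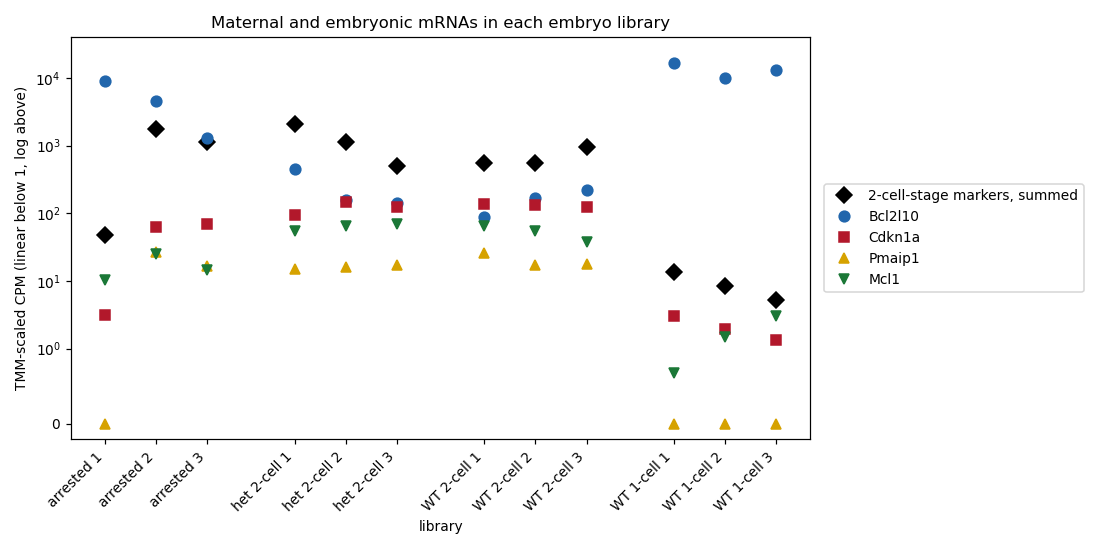
TMM-scaled CPM of Bcl2l10, Cdkn1a, Pmaip1 and Mcl1 and the summed CPM of 10 markers of the 2-cell stage in each arrested, 2-cell and WT 1-cell library, on an axis that is linear below 1 and logarithmic above. Arrested library 1 has no Pmaip1 read, 3.17 CPM of Cdkn1a and a marker sum of 47.8 CPM, while arrested libraries 2 and 3 have marker sums of 1780 and 1140 CPM, and all 3 keep more Bcl2l10 than any 2-cell library.

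The arrested libraries were not alike. A sum of 10 mRNAs typical of the 2-cell stage, among them Zscan4c and Zfp352, came to 47.8, 1780 and 1140 CPM in the arrested libraries. It was 502 to 2090 CPM in het 2-cell, 556 to 967 CPM in WT 2-cell, 12 to 17.2 CPM in het 1-cell and 5.18 to 13.4 CPM in WT 1-cell libraries. Library 1, with the low sum, had the lowest Cdkn1a, Ccng1, Zmat3, Pmaip1, Bax and Mcl1 and the highest Bcl2l10 of the 3. The other 3 members did not set it apart from both others, since Trp53 was lowest in library 3, Mdm2 was alike in libraries 1 and 3, and Bbc3 had no read in libraries 1 and 2. Library 1 was nonetheless not a WT 1-cell profile, since its Mcl1 of 10.3 CPM was above the WT 1-cell maximum of 3.09 CPM and its 6 detected markers of the 2-cell stage were more than the 2 to 4 of WT 1-cell libraries. The blood and oviduct marker lists followed the same split. They summed to 14.7, 415 and 200 CPM (blood) and 22.3, 192 and 86.3 CPM (oviduct) in arrested libraries, with 395 to 579 CPM and 212 to 312 CPM in WT 2-cell and 0.542 to 4.35 CPM and 24.6 to 51.9 CPM in WT 1-cell libraries. Nearly all blood-list counts were of the alpha-globin genes Hba-a1 and Hba-a2, with no read of the leukocyte genes Ptprc and Tyrobp in any embryo library, and most oviduct-list counts were of Epcam. Granulosa and cumulus markers summed to 61.6, 184 and 64.4 CPM in arrested and 67.4 to 86.9 CPM in WT 1-cell libraries. The part of these in the split was not tested. Without arrested library 1, 5 members were called against WT 1-cell embryos, the fifth being Bcl2l10, which fell.

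**Figure D3:**
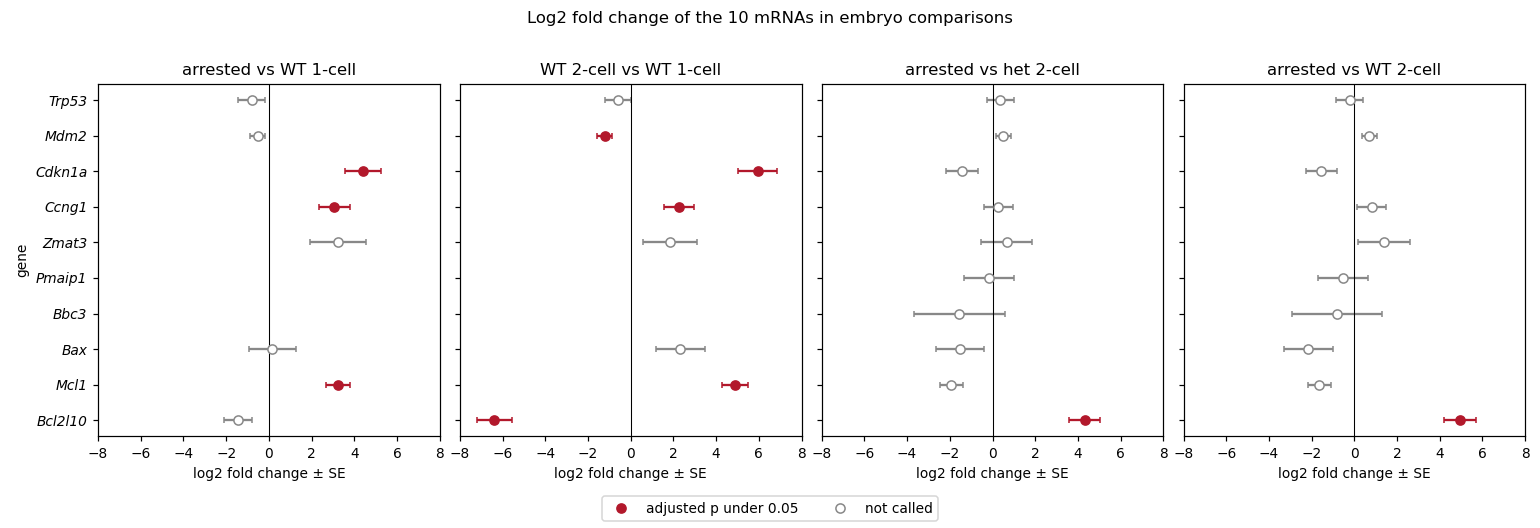
Log2 fold change with its SE for the 10 mRNAs in 4 embryo comparisons, from edgeR's quasi-likelihood fit of 12 libraries, where filled red points have an adjusted p under 0.05. Pmaip1 and Bbc3 are left out of the 2 comparisons with WT 1-cell embryos, which had no read of them. Cdkn1a, Ccng1 and Mcl1 are called up against WT 1-cell embryos both in arrested embryos (4.41, 3.07 and 3.24) and in WT 2-cell embryos (5.95, 2.25 and 4.88), which share those controls, and Bcl2l10 is the 1 member called against the 2-cell groups.

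Set against het 1-cell embryos, 5 of 10 members were called up in arrested embryos, where 14.1% of all genes were called, 10.3% up and 3.75% down. These calls were lost without the 2 het 1-cell libraries that stand apart. The called members were Cdkn1a (3, SE 0.75, adjusted p = 0.0178), Ccng1 (2.69, SE 0.79, adjusted p = 0.0358), Mcl1 (4.32, SE 0.65, adjusted p = 0.00203), Zmat3 (at least 54.2-fold higher, adjusted p = 0.0112) and Pmaip1 (adjusted p = 0.0186), with log2 changes and p-values from edgeR. Pmaip1 had 14.4 ± 13.5 CPM in arrested and 0.169 ± 0.244 CPM in het 1-cell embryos (SD, n = 3). Without het 1-cell libraries 1 and 3 none of the 10 was called, and 55 of all genes were, with the remaining het 1-cell library assumed to vary like the other groups. The log2 differences were then 3.88 for Cdkn1a, 4.59 for Ccng1 and 4.72 for Mcl1, each larger than with all 3 libraries. That of Pmaip1 was 4.99, against 6.44 with all 3. With 1 het 1-cell library left, the loss of calls cannot be told apart from an effect of the smaller group. Cdkn1a also lost its call without het 1-cell library 1 (0.059), 2 (0.0697) or 3 (0.0579), Ccng1 without library 1 (0.123) or 2 (0.107) or arrested library 2 (0.127), and Pmaip1 without het 1-cell library 1 (0.0739) or 3 (0.0809). With the replicate number as a block, Ccng1 was at 2.82 with adjusted p = 0.0659.

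Genotype at 1 cell gave no call among the 10, nor among all genes by edgeR, where 887 genes had an unadjusted p under 0.05 and DESeq2 called 78. Cdkn1a had 5.63 ± 2.23 CPM in het and 2.12 ± 0.858 CPM in WT 1-cell embryos (SD, n = 3), with a log2 difference of 1.41 (SE 0.73, adjusted p = 1). Its het libraries lay just above the WT libraries, the closest pair being 3.054 CPM in het and 3.05 CPM in WT. Without het 1-cell libraries 1 and 3, the Cdkn1a difference was 0.53 and that of Ccng1 was -1.53, against 0.37 with all libraries (adjusted p = 1 for all). With no scaling factor Cdkn1a averaged 11.1 CPM in het and 1.77 CPM in WT 1-cell embryos, and the order of the means turned for Trp53, Mdm2 and Mcl1, the last at 1.55 CPM in het and 1.51 CPM in WT, against scaled means of 0.814 CPM in het and 1.75 CPM in WT. Bcl2l10 was the member that the libraries standing apart decided. It had 213, 16400 and 157 CPM in het 1-cell libraries 1, 2 and 3, against 16910, 10020 and 13100 CPM in WT 1-cell libraries. The log2 difference was -1.26 (SE 1.29, adjusted p = 1) with all libraries and 0.3 without het libraries 1 and 3, while leaving out het library 2 gave a called -6.17 (adjusted p = 0.0035). In those 2 libraries Cdkn1a, Pmaip1 and Mcl1 stayed within 0 to 6.92 CPM and the 2-cell markers at 12.3 and 17.2 CPM. Ccng1 had 4.82 and 13.5 CPM there, the second value being the highest of the 6 1-cell libraries and above the 11.9 CPM of het 2-cell library 2. Zmat3 had 0 reads in het and 21 reads in WT 1-cell libraries, 18 of them in WT 1-cell library 3, and was at least 5.69-fold lower in het embryos, without a call.

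Genotype at 2 cells likewise called none of the 10, with 1 gene called among all by edgeR, 1041 at an unadjusted p under 0.05 and 63 by DESeq2. Cdkn1a averaged 123 ± 27.3 CPM in het and 131 ± 6.96 CPM in WT 2-cell embryos, a log2 difference of -0.09 (SE 0.73). Mcl1 averaged 63.7 ± 7.76 CPM in het and 52.1 ± 13.4 CPM in WT 2-cell embryos, a difference of 0.29 (SE 0.52). Trp53 and Pmaip1 were lower in every het than in every WT 2-cell library. For Pmaip1 the closest pair was 17.47 CPM in het and 17.51 CPM in WT. The log2 differences were -0.58 (SE 0.62) for Trp53 and -0.33 (SE 1.17) for Pmaip1, and all 4 adjusted p-values were 1. The share of all genes whose 2-cell libraries separate by genotype is not given here. Het 2-cell library 1 was the lowest of the 6 2-cell libraries in Cdkn1a, Pmaip1 and Bax and the highest in Mdm2, Ccng1, Zmat3 and Bcl2l10.

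In GV oocytes the translatome held more Cdkn1a and Mcl1 mRNA in het than in WT samples, and these were the 2 called of the 9 members tested, both up, where 4.61% of all 22409 genes were called, 2.61% up and 2.01% down. Pmaip1, with at most 11 reads in a GV library, did not pass the filter on low counts. Cdkn1a had 5.98 and 8.59 CPM in the het translatome, and 2.26 and 1.41 CPM in the WT translatome, a log2 difference of 1.95 (SE 0.41, adjusted p = 0.0211) by edgeR's test. Mcl1 had 11.8 and 11.8 CPM in the het translatome, and 4.23 and 3.2 CPM in the WT translatome, a difference of 1.66 (SE 0.4, adjusted p = 0.0364). The groups did not overlap for either gene, nor for Trp53, Mdm2, Zmat3, Bbc3 and Bax, which were not called. The share of all genes that separate in this way is not given here. With 2 libraries per group, Cdkn1a lost its call without het library 1 (adjusted p = 0.0757), het library 2 (0.161) or WT library 2 (0.0615), and Mcl1 without any 1 of the 4 (0.0947 to 0.168). Bbc3 had 41 reads in the het and 3 reads in the WT translatome, a ratio of 11.2 with a 95% counting interval of 3.56 to 56.4, and was not called (adjusted p = 0.154). Markers of granulosa and cumulus cells, which surround the oocyte, were higher in the same libraries. Their 19 mRNAs summed to 614 and 916 CPM in the het translatome, and 179 and 354 CPM in the WT translatome, with 19 and 19 of them detected in het and 18 and 17 in WT libraries. Over the 8 oocyte libraries most counts of this list were of Inha (56672), with Cyp19a1 (8492) and Nr5a2 (5832) next. The part of these markers in the differences of Cdkn1a, Mcl1 and Bbc3 was not tested.

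The transcriptome of the same oocytes gave the same signs for Cdkn1a and Mcl1 without a call, 0 of 9 members where 2.55% of all genes were called, 1.41% up and 1.14% down. Cdkn1a had 4 and 3.75 CPM in the het transcriptome, and 1.51 and 1.86 CPM in the WT transcriptome, a log2 difference of 1.19 (SE 0.42, adjusted p = 0.143). Mcl1 had 5.75 and 8.94 CPM in the het transcriptome, and 3.57 and 1.68 CPM in the WT transcriptome, a difference of 1.53 (SE 0.41, adjusted p = 0.0654). Mcl1 was called with no filter on low counts (adjusted p = 0.00947), by DESeq2 (0.0117) and without WT library 1 (0.0372). Granulosa and cumulus markers summed to 359 and 261 CPM in the het transcriptome, and 112 and 191 CPM in the WT transcriptome. Bax had 18.3 and 11.2 CPM in the het transcriptome, and 24.7 and 24.5 CPM in the WT transcriptome, without overlap and without a call (-0.78, SE 0.29, adjusted p = 0.153). Trp53, Cdkn1a, Zmat3, Pmaip1, Mcl1 and Bcl2l10 did not overlap between genotypes in this fraction either, and the share of all genes is not given here. Pmaip1 had no read in the het and 17 reads in the WT transcriptome, at least 1.61-fold lower in het.

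**Figure D4:**
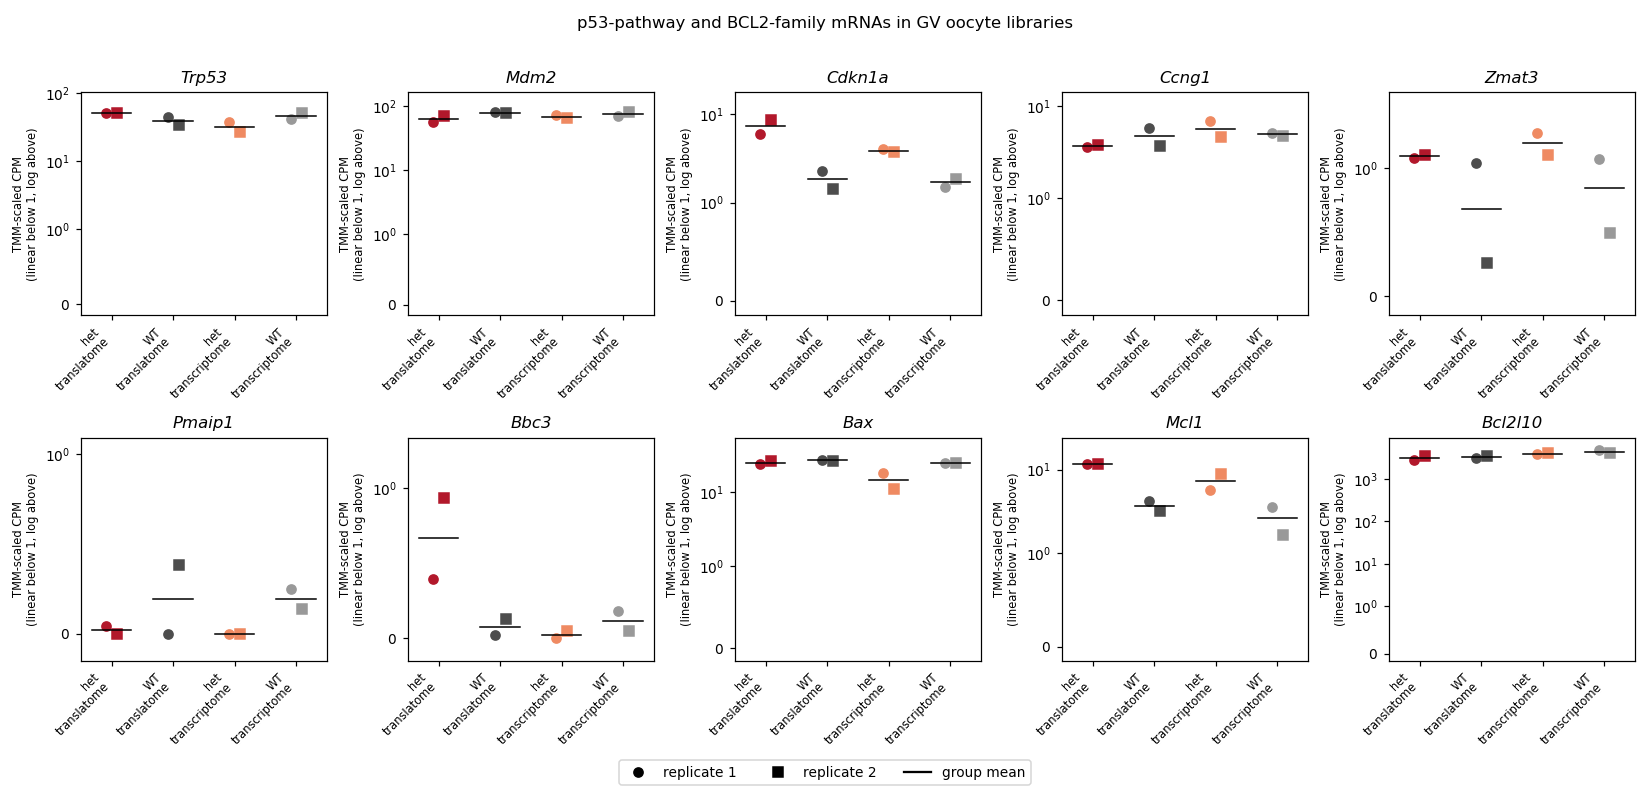
Level of each of the 10 mRNAs in the 8 GV oocyte libraries, as TMM-scaled CPM on an axis that is linear below 1 and logarithmic above. Each point is a library, its shape gives the specimen, and the line is the group mean. Cdkn1a and Mcl1 lie higher in both het groups than in their WT groups, and Bcl2l10 lies between 2792 and 4750 CPM in all 8 libraries.

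For Trp53 the genotypes did not overlap in either fraction and stood in opposite order in the 2 fractions. Its mRNA had 51.5 and 51.4 CPM in the het translatome, and 45.1 and 33.8 CPM in the WT translatome, a log2 difference of 0.38 (SE 0.26, adjusted p = 0.426). In the transcriptome it had 37.3 and 27.3 CPM in het oocytes, and 42.5 and 50.8 CPM in WT oocytes, a difference of -0.54 (SE 0.27, adjusted p = 0.278). Within a specimen, the log2 ratio of translatome to transcriptome was 0.47 and 0.91 in het and 0.09 and -0.59 in WT oocytes. The difference between the 2 changes was 0.93 (SE 0.37, unadjusted p = 0.0261), which did not pass edgeR's test over all genes (adjusted p = 0.52), where 0.0134% of genes were called, 0.00446% up and 0.00892% down. For that difference 1999 of all 22409 genes had an unadjusted p under 0.05. The share of all genes whose libraries separate as those of Trp53 did is not given here. None of the 9 tested members was called for that difference. Bbc3 had the other unadjusted p under 0.05 (4.81, SE 2.13, unadjusted p = 0.041, adjusted p = 0.545), a fitted value that rests on 1 read in the het transcriptome and 3 reads in the WT translatome. Its genotype differences were 3.35 (SE 1.29) in the translatome and -1.46 (SE 1.74) in the transcriptome, and those of Ccng1 also had opposite signs (-0.38, SE 0.37 and 0.15, SE 0.39), with groups that overlapped.

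Between the fractions of WT oocytes none of the 9 tested members was called, where 14.6% of all genes were, 8.95% higher and 5.64% lower in the translatome. Bcl2l10 had 3155 and 3441 CPM in the WT translatome and 4750 and 4115 CPM in the WT transcriptome, a log2 difference of -0.43 (SE 0.27, adjusted p = 0.307). Within a specimen the log2 ratio of translatome to transcriptome of Bcl2l10 was below 0 in all 4, at -0.45 and -0.19 in het and -0.59 and -0.26 in WT oocytes. Mdm2 had 81.3 and 77.1 CPM in the WT translatome and 71.1 and 82 CPM in the WT transcriptome (0.05, SE 0.24, adjusted p = 0.909), and Bax had 27.3 and 26.7 CPM against 24.7 and 24.5 CPM (0.13, SE 0.27, adjusted p = 0.778). Mdm2 was at 56.9 and 69.9 CPM in the het translatome (-0.32, SE 0.24, adjusted p = 0.468 against WT) and 72.8 and 64.3 CPM in the het transcriptome (-0.16, SE 0.24, adjusted p = 0.765). Bcl2l10 was at 2792 and 3545 CPM in the het translatome and 3801 and 4033 CPM in the het transcriptome, with differences from WT of -0.06 (SE 0.27) and -0.18 (SE 0.27), neither called. Ccng1 lay at 3.56 to 6.75 CPM and Zmat3 at 0.256 to 2 CPM over all 8 oocyte libraries, also without a call.

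Per kb of exon, the order of the 10 mRNAs changed with the stage while Bcl2l10 led in all 9 groups. In the WT GV transcriptome Bcl2l10 averaged 3630 ± 368 CPM per kb, followed by Bax (15.6 ± 0.0665), Mdm2 (15.1 ± 1.52) and Trp53 (11.5 ± 1.45). Bax and Mdm2 did not differ beyond their spread there. In WT 1-cell embryos the order was Bcl2l10 (10900 ± 2830 CPM per kb), Mdm2 (46.8 ± 6.08), Trp53 (14.2 ± 3.27), Bax (2.7 ± 1.28) and Ccng1 (1.48 ± 0.477), the last pair overlapping. Cdkn1a (0.596 ± 0.242) and Mcl1 (0.513 ± 0.358) came next and overlapped too. In WT 2-cell embryos Cdkn1a was second at 36.9 ± 1.96 CPM per kb, behind Bcl2l10 at 131 ± 55.5. Mdm2 (20 ± 3.3), Mcl1 (15.3 ± 3.91) and Bax (13.5 ± 1.6) followed, each within the spread of its neighbour, then Trp53 (9.43 ± 1.14), Pmaip1 (7.54 ± 1.81) and Ccng1 (7.07 ± 1.03), again within the spread of their neighbours. In arrested embryos Bcl2l10 stood at 4070 ± 3160 CPM per kb, Mdm2 at 32.7 ± 9.66, Cdkn1a at 12.7 ± 10.3 and Ccng1 at 12.4 ± 9.9. Het 2-cell embryos kept the WT order of the first 4, with Bcl2l10 at 204 ± 139, Cdkn1a at 34.5 ± 7.68, Mdm2 at 22.9 ± 3.69 and Mcl1 at 18.6 ± 2.27 CPM per kb. Oocyte and embryo levels come from tables scaled separately and were not tested against each other.

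Other genes of the pathway were taken from 4 lists. Among regulators of p53, 7 rose and 4 fell of 23 tested in WT 2-cell against WT 1-cell embryos (median log2 change -0.57, all genes 0.61), where 27.3% of all genes rose and 15.1% fell. Atm, a kinase that activates p53 after DNA breaks, had 132 ± 13.7 CPM in WT 2-cell and 1.91 ± 0.937 CPM in WT 1-cell embryos (6.11, SE 0.81, adjusted p = 0.000353). Chek1, a checkpoint kinase, fell to 120 ± 26.1 CPM in WT 2-cell, against 1830 ± 267 CPM in WT 1-cell embryos (-3.93, SE 0.62, adjusted p = 0.00069). In arrested embryos Atm stood at 32.4 ± 25.8 CPM, above WT 1-cell embryos (4.09, SE 0.74, adjusted p = 0.00487), and Chek1 at 845 ± 742 CPM, above WT 2-cell embryos (2.82, SE 0.59, adjusted p = 0.0138). Of these 23 regulators, 1 rose and 1 fell against WT 1-cell (median -0.18, all genes 0.43), 4 rose and 5 fell against WT 2-cell (0.25, all genes -0.02), and 2 rose and 3 fell against het 2-cell embryos (-0.26, all genes -0.07). Over all genes 12.1% rose and 4.16% fell in the first of these 3 comparisons, 7.14% and 6.85% in the second, and 2.09% and 2.99% in the third. Rfwd3, a ubiquitin ligase that stabilises p53, was at 8.65 ± 4.39 CPM in arrested, 59.1 ± 10.1 CPM in het 2-cell and 54.5 ± 3.21 CPM in WT 2-cell embryos (-2.77, adjusted p = 0.0257 and -2.66, adjusted p = 0.013, edgeR).

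Among 27 tested of 30 other p53 targets, 12 rose and 4 fell in WT 2-cell against WT 1-cell embryos (median 2.27, all genes 0.61), where 27.3% of all genes rose and 15.1% fell. In arrested against WT 1-cell embryos 8 rose and 2 fell (median 1.3, all genes 0.43), where 12.1% of all genes rose and 4.16% fell. Sfn, the stratifin gene, had 45.2 ± 43.2 CPM in arrested, 129 ± 27.1 CPM in WT 2-cell and 2.67 ± 0.858 CPM in WT 1-cell embryos. Tnfrsf10b, a death receptor gene, had 11.8 ± 10.3 CPM in arrested embryos and 1 read in the 3 WT 1-cell libraries. Against the 2-cell groups the list moved in both directions, with 2 up and 2 down against het (median -0.12, all genes -0.07) and 3 up and 3 down against WT embryos (median 0.44, all genes -0.02), where 5.08% and 14% of all genes were called. Tigar, a regulator of glycolysis, was lower in arrested embryos at 30.1 ± 21 CPM, against 261 ± 122 CPM in het 2-cell (-3.11, SE 0.64, adjusted p = 0.0266) and 265 ± 1.58 CPM in WT 2-cell embryos (-3.13, SE 0.64, adjusted p = 0.0129). Rrm2b, a ribonucleotide reductase subunit, was higher in arrested embryos at 354 ± 164 CPM, against 71.1 ± 31.6 CPM in het 2-cell embryos (2.32, SE 0.47, adjusted p = 0.0266).

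Of 13 tested among 18 further BCL2-family genes, 6 rose and 1 fell in WT 2-cell against WT 1-cell embryos (median 2.19, all genes 0.61), and 3 rose and none fell in arrested against WT 1-cell embryos (median 0.93, all genes 0.43). The shares of all genes were 27.3% up and 15.1% down in the first comparison and 12.1% up and 4.16% down in the second. Bcl2l14 had 7.3 ± 6.86 CPM in arrested and 47 ± 9.8 CPM in WT 2-cell embryos and no read at 1 cell in WT, at least 140-fold higher in arrested and at least 744-fold higher in WT 2-cell embryos. Bad, a BH3-only gene, had 10.3 ± 9.82 CPM in arrested, 14.4 ± 3.46 CPM in WT 2-cell and 0.04 ± 0.0355 CPM in WT 1-cell embryos. Against the 2-cell groups, none of the 13 was called in het (median -0.43, all genes -0.07) and 2 fell in WT (median -0.45, all genes -0.02). Over all genes, 5.08% were called against het and 14% against WT 2-cell embryos, with 2.99% and 6.85% down. The 2 that fell were Bnip3, a mitophagy receptor, at 144 ± 28.6 CPM in arrested and 619 ± 107 CPM in WT 2-cell embryos, and Bcl2l11, the BH3-only gene for BIM, at 30.6 ± 8.13 CPM in arrested and 73 ± 2.49 CPM in WT 2-cell embryos. Of 22 caspases and other genes of apoptosis execution, 3 rose and 1 fell in arrested against WT 1-cell embryos (median -0.23, all genes 0.43), 1 rose and 2 fell against WT 2-cell embryos (median -0.77, all genes -0.02) and 1 rose against het 2-cell embryos (median -0.44, all genes -0.07), where 16.2%, 14% and 5.08% of all genes were called. Birc3, an inhibitor of apoptosis, had 235 ± 162 CPM in arrested, 24.1 ± 8.62 CPM in WT 2-cell and 501 ± 80.2 CPM in WT 1-cell embryos. In 2-cell against 1-cell WT embryos 6 of these 22 rose and 3 fell (median 0.44, all genes 0.61), with 42.5% of all genes called.

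Between the genotypes of GV oocytes, 1 of 22 tested regulators rose and 3 fell in the translatome, 1 of 26 other targets rose and 1 fell, and none of 14 further BCL2-family genes or 22 execution genes was called, where 2.61% of all genes rose and 2.01% fell. Cop1, a ubiquitin ligase of p53, had 106 ± 20.8 CPM in het and 24.1 ± 1.49 CPM in WT translatome libraries (2.13, SE 0.38, adjusted p = 0.00953). Rfwd3 had 19.2 ± 0.785 CPM in het and 51 ± 2.6 CPM in WT translatome libraries (-1.41, SE 0.24, adjusted p = 0.00868). Tnfrsf12a was higher in het oocytes in both fractions, at 16 ± 2.36 CPM in het and 3.12 ± 1.06 CPM in WT translatome libraries and at 14.9 ± 7.25 CPM in het and 2.02 ± 0.273 CPM in WT transcriptome libraries (adjusted p = 0.00836 and 0.00637). In the transcriptome 1 other target, Tnfrsf12a, and 1 BCL2-family gene, Bok, rose and none of the 4 lists had a gene that fell, where 1.41% of all genes rose and 1.14% fell. The granulosa and cumulus sums given above were higher in het oocytes in both fractions. The part of these markers in the differences was not tested. At 1 cell and at 2 cells none of the 4 lists had a gene called between het and WT embryos.

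Likeness of pattern was measured as Pearson's r of log2(CPM + 1) over the 12 embryo libraries without the het 1-cell group, among 7066 genes averaging 10 CPM or more. These libraries fall into 4 groups, so r mainly follows the differences between stages, and it is given as a description. Closest to Bcl2l10 were Obox1 (0.994) and Rgs2 (0.994). Closest to Cdkn1a were Prps1 (0.995) and Nop2 (0.995), and closest to Mdm2, with a looser fit, were Myo10 (0.962) and Slco3a1 (0.959).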

How the data were processed

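Poly(A) RNA libraries of 8 GV oocyte and 15 embryo samples were analysed. The authors deposited raw read counts per gene in 2 tables of 56196 genes. Per the submitters' processing notes, reads were handled with Trim Galore (0.6.4), HISAT2 (2.1.0) and featureCounts (1.6.5) on mm10. Neither the annotation release nor the strand setting is stated there. Per the labels' protocols, RNA was amplified with a single-cell full-length kit after direct lysis or RiboLace capture of ribosome-bound mRNA. No molecular identifiers are named, so counting intervals and floors cover counting error only. Gene positions and exon lengths are from an mm10 annotation, and promoter windows from RefSeq.

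Counts were tested with edgeR 4.0.16 (quasi-likelihood F test, R 4.3.3) with filterByExpr and TMM, on 22409 oocyte genes and 23656 embryo genes, with p-values adjusted over all of them by Benjamini-Hochberg. The SE of an edgeR log2 change was taken as its size divided by the square root of the F statistic. It was not estimated separately, and is a rough guide where counts are low. The 8 oocyte libraries formed one model. Because het 1-cell libraries 1 and 3 stand apart, comparisons without the het 1-cell group were fitted on the other 12 embryo libraries, and comparisons with it on all 15. Fits were tested on counts simulated with the same dispersion of 0.1 for every gene, where 200 well expressed genes changed by 2 log2 units. In the translatome comparison 74.5% of these were recovered, with 3.87% of calls false. For arrested against WT 2-cell embryos the values were 95.5% and 4.5%. Recovery of scarce mRNAs, or with the wide spread of the arrested libraries, was not tested. A gene with no read in a group is given as a bound against a total of 3 counts, and one with 1 to 3 counts as a ratio with its 95% interval. No label states that libraries of a group came from different animals. P-values therefore reflect the spread among libraries, part of which may be technical. Both fractions of an oocyte specimen carry 1 specimen number in the sample descriptions, and deviations from group means correlated at 0.263 in het and 0.058 in WT pairs. Alternatives were RLE scaling, no filter, DESeq2 1.42.0, a replicate block, the other set of embryo libraries, leaving out each library and, for levels, CPM with no scaling factor.

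The 10 genes, the lists and the tests were chosen with earlier results of these data known. Named genes are the 10, Eif4enif1 and, from each list, up to 3 called genes with the smallest p in a comparison, of which a selection is printed. Another called gene of the apoptosis execution list is not reported here by name. Marker lists were oocyte, granulosa and cumulus, 2-cell stage, sperm, blood and oviduct. Over embryo libraries, sperm markers summed to 1.23 to 10.2 CPM in het groups and 1.22 to 8.27 CPM in WT groups, and the other lists are given with the results. In het 2-cell libraries blood markers summed to 192 to 311 CPM and oviduct markers to 193 to 248 CPM. All 12 oocyte markers were detected in every oocyte library.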

Additional observations from a re-analysis of the deposited data

Results flagged for a closer look

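The genotype difference of Trp53 mRNA pointed in opposite directions in the 2 fractions of GV oocytes. In the translatome both het libraries were above both WT libraries (log2 difference 0.38), and in the transcriptome both het libraries were below both WT libraries (-0.54). The difference between the 2 changes was 0.93 (SE 0.37), with an unadjusted p = 0.0261 and an adjusted p = 0.52 over all genes by edgeR's quasi-likelihood test, so it did not pass the correction. An unadjusted p under 0.05 was found for 1999 of 22409 genes. Each group held 2 libraries. The test for a library far from the others of its group was not made, since no group had 4 or more libraries.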

How the results depend on the processing

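Of the counts of members called, those in the transcriptome comparison became 1 with no filter and 1 with DESeq2 (Mcl1), and those of arrested embryos became 2 with RLE scaling and 2 with DESeq2 against het 2-cell and likewise 2 and 2 against WT 2-cell embryos (Mcl1 added). Without het 1-cell libraries 1 and 3, arrested against het 1-cell embryos had 0 members called. Leaving out 1 library at a time gave 0 to 1 members called in the translatome, 0 to 1 in the transcriptome and 0 to 1 for het against WT at 1 cell. It gave 2 to 5 for arrested against het 1-cell, 0 to 2 against het 2-cell, 3 to 5 against WT 1-cell and 0 to 3 against WT 2-cell embryos, 4 to 6 for WT 2-cell against WT 1-cell embryos and 0 in the other comparisons. Where 1 library was left in an oocyte group, it was assumed to vary like the others. Differences that changed sign included Bcl2l10 (0.3) and Ccng1 (-1.53) at 1 cell without het 1-cell libraries 1 and 3. Bcl2l10 in arrested against het 1-cell embryos did so with the replicate block (0.27) and over single libraries (-0.92 to 4.75). Trp53 in arrested against WT 2-cell embryos did so over single libraries (-1.48 to 0.22). Counts over all genes moved more. With DESeq2 they were 1908 in the translatome, 1428 in the transcriptome, 119 for the difference of fractions, 5744, 4469, 6700 and 6615 for arrested against het 1-cell, het 2-cell, WT 1-cell and WT 2-cell embryos, 78 for genotype at 1 cell and 63 at 2 cells. With no filter they were 2076 in the translatome, 1595 in the transcriptome, 116 for the difference of fractions and 1 at 1 cell. With all 15 libraries, arrested against het 2-cell embryos had 1925, and the 1 member called was Mcl1 in place of Bcl2l10. Leaving out 1 library gave 130 to 1041 in the translatome (130 without het library 1, 152 without het library 2 and 333 without WT library 1), 34 to 453 in the transcriptome (135 and 34 without het libraries 1 and 2, 178 without WT library 2), 0 to 1 for the difference of fractions, 1051 to 2230 between WT fractions (1051 without transcriptome library 1), 0 to 337 at 1 cell (337 without het library 2) and 0 to 2 at 2 cells. For arrested embryos it gave 1272 to 6175 against het 1-cell (1272, 1981 and 1303 without het 1-cell libraries 1, 2 and 3, and 6175 without arrested library 1), 0 to 3433 against het 2-cell (3433 without arrested library 2 and 2415 without het 2-cell library 1), 1417 to 7201 against WT 1-cell (1973, 1417 and 1443 without WT 1-cell libraries 1, 2 and 3, and 7201 without arrested library 1) and 1 to 5684 against WT 2-cell embryos (1632 without WT 2-cell library 3 and 5684 without arrested library 2). The specimen numbers pair the oocyte fractions, and with the specimen as replicate block the difference of fractions had 7 genes and no member called. In other comparisons replicates share only a number. Same-numbered embryo libraries correlated at -0.406 to 0.257 and 4 of 15 libraries were closest to their own number. With that replicate block the all-gene counts were 670 in the translatome, 0 for genotype at 2 cells and 1911, 430, 2148 and 2204 for arrested against het 1-cell, het 2-cell, WT 1-cell and WT 2-cell embryos, and no count of members called moved by over 1.5 times. RLE scaling moved the share of called genes that were up to 65.7% in the transcriptome, where TMM gave 55.4%, and the median of all genes in WT 2-cell against WT 1-cell embryos to 0.76, where TMM gave 0.61. The cause of these changes was not tested. With no scaling factor, 14 of 90 group means of members moved by more than 1 SD, 6 of them in het 1-cell embryos, where the order against WT turned for Trp53, Mdm2 and Mcl1. In 1-cell libraries 3 counts stood for 0.157 to 0.27 CPM, and levels of Zmat3, Pmaip1 and Bbc3 under that were not detectable.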
